A study of Rattus norvegicus with 12 samples.

Results

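Col1a1, Col1a2 and Col3a1, the genes of the main fibrillar collagens of the lung, were followed across 12 lung libraries from male Sprague Dawley rats. The 3 members were taken by their Ensembl identifiers, ENSRNOG00000003897 (Col1a1), ENSRNOG00000011292 (Col1a2) and ENSRNOG00000003357 (Col3a1), from a table of 32623 identifiers, and all 3 were among the 14956 genes kept for testing. Each library came from the homogenised right lung of 1 animal and was made with QuantSeq FWD, which reads the 3′ end of polyadenylated transcripts. SAL animals received saline into the trachea on day 0 and day 4, and methylcellulose, the oral vehicle, daily for 3 weeks from day 7. BLM animals received bleomycin, 1 U/kg, into the trachea on the same days and the same oral vehicle. NINT animals received the same bleomycin and, over the same 3 weeks, oral nintedanib at 100 mg/kg per day. Lungs were taken on day 28 from 4 animals per group. The controls differ from BLM in the instilled agent alone, BLM and NINT animals both carry the bleomycin injury, and the age of the animals is not given in the sources used here.

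Type I collagen is a triple helix of α1 chains, encoded by Col1a1, and an α2 chain, encoded by Col1a2. Type III collagen is a homotrimer encoded by Col3a1, and both types assemble into the striated fibrils that bear tension in the interstitium of airways, vessels and alveolar walls. Fibroblasts and myofibroblasts are their main source, and excess deposition of both types is a defining feature of lung fibrosis. Bleomycin, a drug that breaks DNA, is widely used to produce such fibrosis in rodents, and nintedanib, which blocks the receptor tyrosine kinases of the PDGF, FGF and VEGF families, is used to treat it.

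Library totals ranged from 16572004 to 21719946 counts. On the first principal component of all other genes kept, which held 53.8% of the variance in log2 CPM, BLM replicates 3 and 4 stood apart at 96.8 and 55.5. BLM replicates 1 and 2 lay at 17.9 and 0.950, the NINT animals between -11.7 and 4.82, and the SAL animals between -46.2 and -34.1. The fold changes of the members, their ratios and their spread in BLM are therefore also given without BLM replicate 3. Ranks and shares among all genes and profile distances are given with all 12 libraries only. The identifiers were not paired with gene symbols beyond these 3 genes, so markers of the lung and of its cell types were not checked, nor were other collagen, crosslinking or TGF-β pathway genes. In a homogenate, a change in the number of collagen-producing cells and a change in RNA per cell cannot be told apart.

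The promoter of Col1a2 is shown because it was the 1 member of 3 with an entry in the RefSeq promoter table (build GRCr8). Of the 250 bases before the annotated start, the distal 110 lie at chr4:33518307-33518416 on the plus strand. Capitals mark matches to the letters of an inverted CCAAT box and a TATA box. As general promoter elements, such boxes are bound by NF-Y and by the TATA-binding protein.
Col1a2: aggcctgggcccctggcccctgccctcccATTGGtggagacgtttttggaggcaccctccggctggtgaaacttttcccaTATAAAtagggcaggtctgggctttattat
The match to the inverted CCAAT box (ATTGG) began 221 bases before the annotated start. That to the TATA box (TATAAA) began 170 bases before it, and the matches did not overlap. Whether either match serves the annotated start was not tested. Searched on both strands over windows of 250 bases, CCAAT was present in 34% and TATAAA in 12.9% of 33469 promoters. The GC box GGGCGG, present in 30.5%, was not found in the 250 bases of Col1a2.

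The first comparison asked what bleomycin did to the 3 genes by day 28 in animals given the vehicle. All 3 were higher in BLM than in SAL. The fitted rise was 5.31-fold for Col1a1, 2.79-fold for Col3a1 and 2.28-fold for Col1a2 (log2 fold changes 2.41, 1.48 and 1.19). A fit of log2 CPM, limma voom, gave smaller log2 fold changes of 2.04, 1.34 and 1.06. The tests of the differences between the genes are those of their ratios. In each gene the 4 BLM animals lay above all 4 SAL animals. The height of the rise differed widely between BLM animals, with replicate 3 highest and replicate 4 next for each gene.

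Col1a1 stood at 288, 332, 335 and 289 CPM (counts scaled to the normalized library total) in SAL replicates 1 to 4. In BLM replicates 1 to 4 it stood at 671, 602, 3469 and 1870 CPM. The lowest BLM animal was thus above the highest SAL animal, and 2 of the BLM animals were far above the other two. The means were 311 ± 25.7 CPM in SAL and 1653 ± 1343 CPM in BLM (SD, n = 4 each). The log2 fold change was 2.41 (SE 0.45, 95% interval 1.43 to 3.39, edgeR quasi-likelihood adjusted p = 0.00247). Of 14956 genes tested, 45 had a larger rise. Without BLM replicate 3 the log2 fold change was 1.80 and was still called.

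Col1a2, which encodes the other chain of type I collagen, stood at 407, 413, 429 and 380 CPM in SAL replicates 1 to 4 and at 590, 554, 1582 and 986 CPM in BLM replicates 1 to 4. The SAL animals were close to each other, and the groups did not overlap. The means were 407 ± 20.7 CPM in SAL and 928 ± 478 CPM in BLM (SD, n = 4 each). The log2 fold change was 1.19 (SE 0.27, 95% interval 0.60 to 1.77, edgeR adjusted p = 0.00573). Without BLM replicate 3 it was 0.84 and was still called.

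Col3a1, the type III chain, stood at 518, 557, 575 and 514 CPM in SAL replicates 1 to 4. In BLM replicates 1 to 4 it stood at 889, 886, 2524 and 1736 CPM. BLM replicates 1 and 2 were nearly equal, above the SAL animals and well below BLM replicates 3 and 4. The means were 541 ± 30.1 CPM in SAL and 1509 ± 786 CPM in BLM (SD, n = 4 each). The log2 fold change was 1.48 (SE 0.27, 95% interval 0.89 to 2.07, edgeR adjusted p = 0.00229). Without BLM replicate 3 it was 1.16 and was still called.

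The 3 of 3 genes called higher in BLM stand against a background in which 40.8% of the 14956 genes were called and 18.3% were called higher. Groups that did not overlap, with BLM higher, were found in 16.1% of genes. The median log2 fold change of the 3 genes was 1.48, against 0.0019 over all genes tested. Each of the 3 rises was called in all 12 fits that left out 1 animal. Those fits called 4880 to 7092 of all genes in this comparison.

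**Figure D1:**
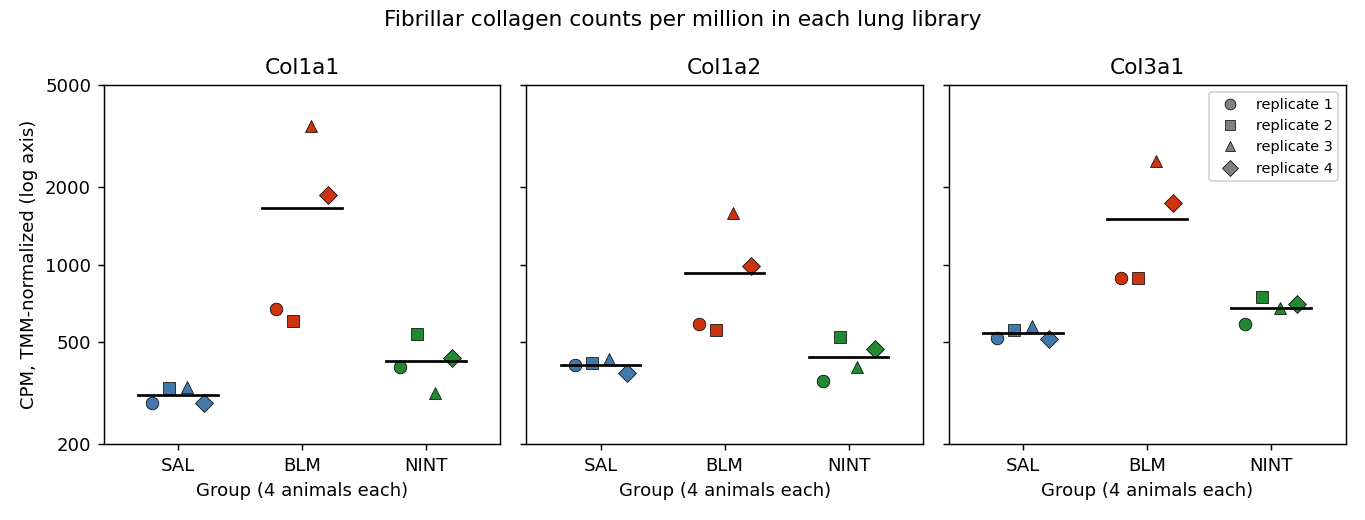
CPM (TMM-normalized, log axis) of Col1a1, Col1a2 and Col3a1 in each of the 12 lung libraries by group. Points are animals, with the replicate number shown by the symbol, and horizontal lines are group means. BLM replicates 3 and 4 are the highest libraries for each gene, from 986 to 3469 CPM, and NINT animals lie between 317 and 749 CPM.

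The animals of the BLM group lay further apart than those of the other groups for each gene. In SAL the coefficient of variation was 8.28% for Col1a1, 5.07% for Col1a2 and 5.57% for Col3a1. In BLM it was 81.3%, 51.5% and 52.1%, and in NINT 21.8%, 17.1% and 9.82%. The highest BLM animal had 5.76 times the Col1a1 level of the lowest, against 2.85 times for each of Col1a2 and Col3a1. Among the other 3 BLM animals, with replicate 3 left out, these ratios were 3.10, 1.78 and 1.96, and the coefficients of variation were 68.0%, 33.7% and 41.9%. In BLM all 3 genes put the animals in the same order, replicate 3, 4, 1 and 2 from high to low, which is also their order on the first principal component of the other genes. The libraries are the same in each case, so these orders are not independent.

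The summed share of the 3 genes was 0.128% ± 0.0059 of all counts among SAL animals. It was 0.407% ± 0.259 among BLM animals and 0.152% ± 0.0236 among NINT animals (SD over 4 animals per group). The highest share was 0.753% in BLM replicate 3 (95% exact Clopper-Pearson interval 0.750% to 0.757%), and the lowest was 0.122% in SAL replicate 4 (0.120% to 0.123%). The other 3 BLM animals lay between 0.203% and 0.456%. Such intervals cover counting error within 1 library and not differences between animals. They may be too narrow, since reads from amplified libraries without molecular identifiers are not independent molecules. The intervals were narrow beside the differences between BLM animals.

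The second comparison asked how the 3 genes stood after 3 weeks of nintedanib in animals given bleomycin. All 3 were lower in NINT than in BLM, Col1a1 at 0.255 times, Col3a1 at 0.450 times and Col1a2 at 0.470 times the BLM level in the fit. In each gene all 4 NINT animals lay below all 4 BLM animals. The gap was narrow at its closest point, because the highest NINT animal, replicate 2, came near BLM replicates 1 and 2. These values share the BLM animals with the comparison of BLM and SAL, so the rise and the fall are not independent measurements.

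In NINT replicates 1 to 4 Col1a1 stood at 399, 539, 317 and 433 CPM. Replicate 2 was the highest and still below the 602 CPM of the lowest BLM animal. The mean was 422 ± 92.0 CPM (SD, n = 4). Against BLM the log2 fold change was -1.97 (SE 0.45, 95% interval -2.93 to -1.01, edgeR adjusted p = 0.0338), and 40 of 14956 genes had a larger fall. Without BLM replicate 3 it was -1.31 and was not called (edgeR adjusted p = 0.0523).

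Col1a2 stood at 353, 523, 400 and 468 CPM in NINT replicates 1 to 4. The highest of these came within a small distance of the 554 CPM of the lowest BLM animal. The mean was 436 ± 74.7 CPM (SD, n = 4). Against BLM the log2 fold change was -1.09 (SE 0.27, 95% interval -1.67 to -0.51, edgeR adjusted p = 0.0397). Without BLM replicate 3 it was -0.70 and was not called (edgeR adjusted p = 0.0616).

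Col3a1 stood at 590, 749, 677 and 702 CPM in NINT replicates 1 to 4, all below the 886 CPM of the lowest BLM animal. The mean was 680 ± 66.8 CPM (SD, n = 4). Against BLM the log2 fold change was -1.15 (SE 0.27, 95% interval -1.74 to -0.57, edgeR adjusted p = 0.0361). Without BLM replicate 3 it was -0.78 and was not called (edgeR adjusted p = 0.0573).

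In this comparison 5.83% of genes were called and 3.46% were called lower, beside the 3 of 3 collagen genes. Groups that did not overlap, with NINT lower, made up 9.68% of genes. The median log2 fold change of the 3 genes was -1.15, against -0.0057 over all genes. With all 12 libraries, DESeq2 (adjusted p = 0.00298, 0.00273 and 0.00156 for Col1a1, Col1a2 and Col3a1) and limma voom (adjusted p = 0.0482, 0.0493 and 0.0462) also called the 3 genes. The edgeR calls depended on the animals: of the 12 fits that left out 1 animal, 4 called Col1a1 (those without SAL replicate 1 or 3 or BLM replicate 1 or 2) and 2 called Col1a2 and Col3a1 (those without BLM replicate 1 or 2). The direction was the same in all 12, and the adjusted p reached 0.0956. The number of all genes called also moved, from 872 with all libraries to between 17 (without NINT replicate 2) and 2857 (without BLM replicate 2). It was 335 without BLM replicate 1 and 272 without BLM replicate 3. In a fit of the BLM and NINT libraries alone none of the 3 was called by edgeR (adjusted p = 0.102, 0.114 and 0.110 for Col1a1, Col1a2 and Col3a1). The log2 fold changes there were -1.97, -1.08 and -1.14, with unadjusted edgeR p-values of 0.00347, 0.00632 and 0.00478. That fit called only 28 of 14511 genes, while 3294 had an unadjusted p under 0.05.

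**Figure D2:**
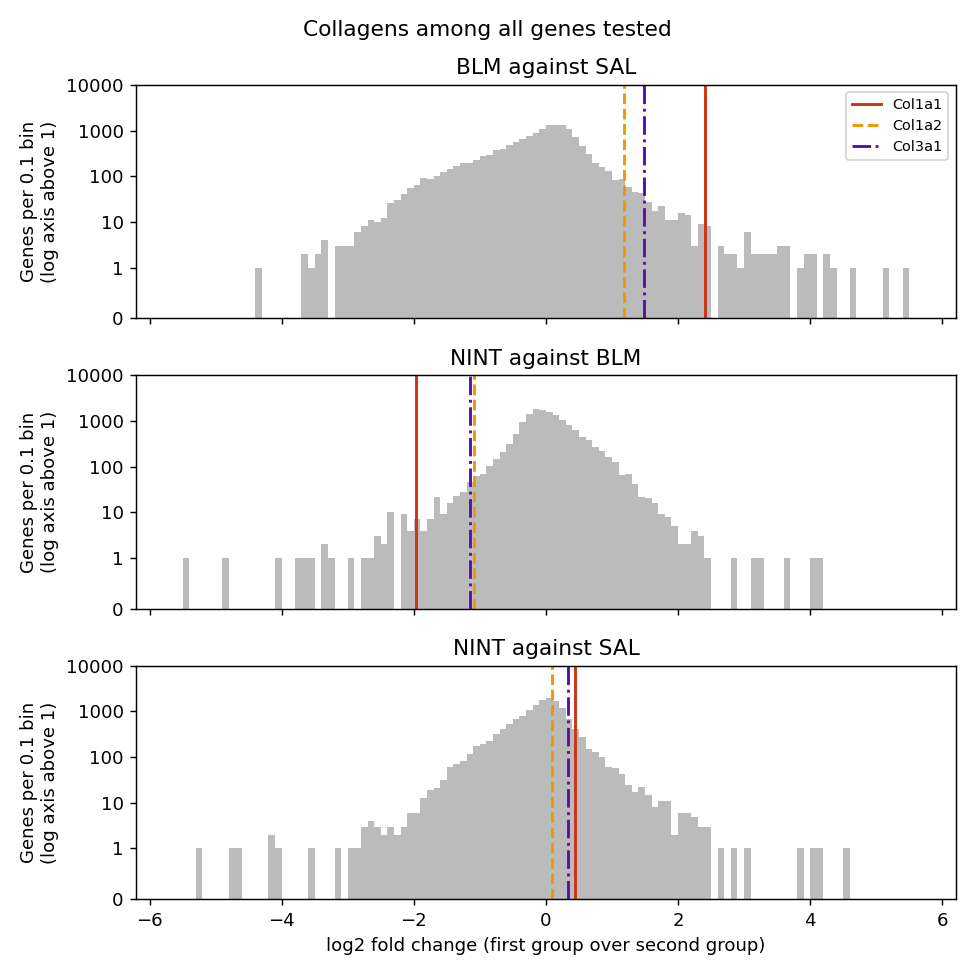
Distribution of the log2 fold change over the 14956 genes tested in each comparison (grey, number of genes per bin of 0.1, log axis above 1 gene), with the 3 collagen genes as vertical lines. The lines for Col1a1, Col3a1 and Col1a2 stand at 2.41, 1.48 and 1.19 in the top panel (BLM against SAL). They stand at -1.97, -1.15 and -1.09 in the middle panel (NINT against BLM) and at 0.44, 0.33 and 0.10 in the bottom panel (NINT against SAL).

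The third comparison set the nintedanib animals beside those given saline. None of the 3 genes was called in NINT against SAL by edgeR in the fit of all 12 libraries, in which 9.30% of genes were called. None had an unadjusted p under 0.05 there, and DESeq2 and limma voom called none of them. The order of the group means was SAL, NINT, BLM for each gene, and the neighbours SAL and NINT did not differ beyond the spread of that fit. That fit takes 1 estimate of spread per gene from all groups, the widely spread BLM animals included.

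For Col1a1, NINT replicate 3 at 317 CPM lay within the SAL range of 288 to 335 CPM, and the other 3 NINT animals lay above it. The log2 fold change was 0.44 (SE 0.43, 95% interval -0.49 to 1.37, edgeR adjusted p = 0.525). For Col1a2, 2 NINT animals lay above the SAL range, 1 within it and 1 below it. The log2 fold change was 0.10 (SE 0.27, 95% interval -0.48 to 0.68, edgeR adjusted p = 0.842). For Col3a1 all 4 NINT animals lay above all SAL animals, with the lowest NINT value of 590 CPM just above the highest SAL value of 575 CPM, as the NINT animals did for 10.6% of genes. The log2 fold change was 0.33 (SE 0.27, 95% interval -0.25 to 0.91, edgeR adjusted p = 0.436). In a fit of the SAL and NINT libraries alone Col1a1 (log2 fold change 0.49, edgeR adjusted p = 0.0164) and Col3a1 (0.38, edgeR adjusted p = 0.00525) were called higher in NINT. Col1a2 (0.15, edgeR adjusted p = 0.321) was not. That fit called 4248 of 14664 genes in either direction, so such a call was common in it. When BLM replicate 3 was left out, the log2 fold changes were 0.49 for Col1a1, 0.15 for Col1a2 and 0.38 for Col3a1, none called (edgeR adjusted p = 0.242, 0.550 and 0.146). The intervals allow changes in either direction in the fit of all libraries, so equal levels in NINT and SAL were not shown.

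Within the NINT group replicate 2 was highest for each of the 3 genes and replicate 4 next. Replicate 2 was also the NINT animal with the lowest score on the first principal component of the other genes, -11.7, against -0.603 to 4.82 in the other NINT animals. The NINT animal with the most collagen counts was thus the one nearest to the SAL animals on that component. No test was made of this order.

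**Figure D3:**
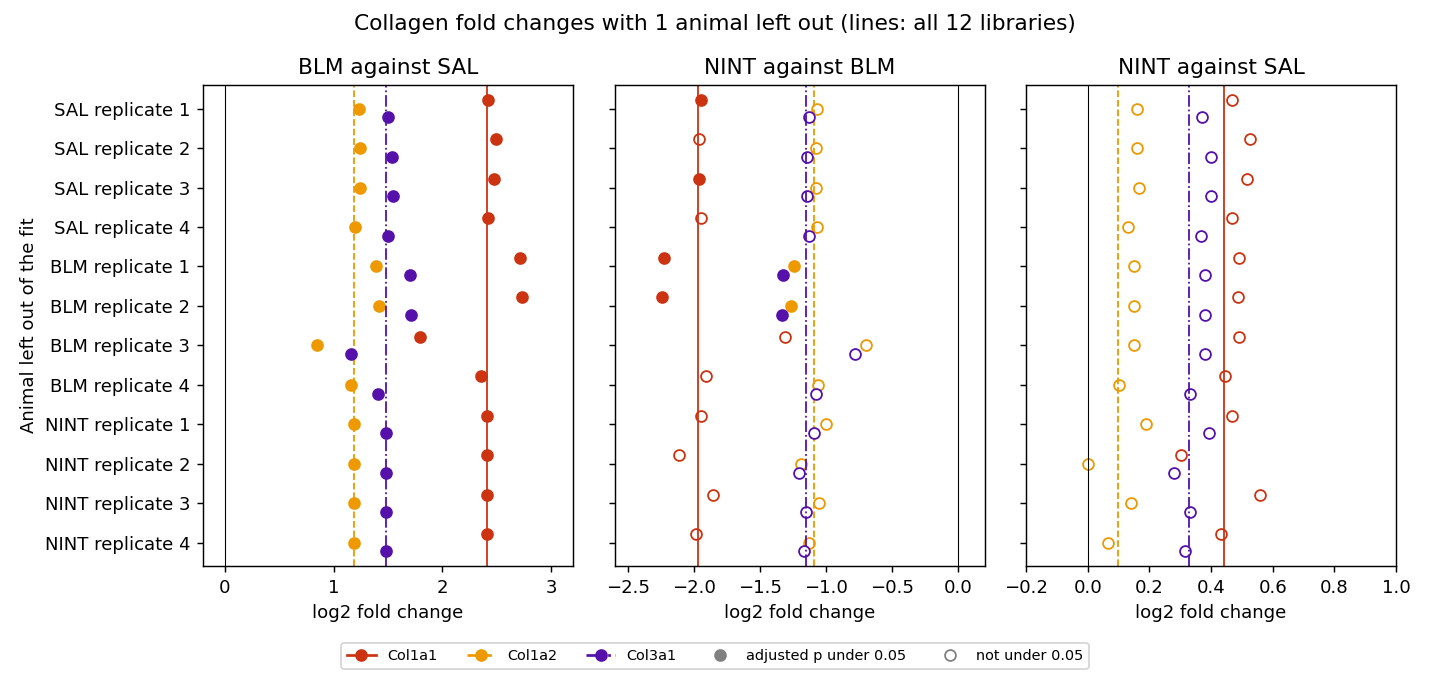
Log2 fold change of Col1a1, Col1a2 and Col3a1 (x axes) in fits that each left out 1 animal (y axis). Filled points are called at an adjusted p under 0.05, open points are not, and vertical lines give the fit of all 12 libraries. All points are filled in BLM against SAL, most are open in NINT against BLM, where leaving out BLM replicate 3 moved the points nearest to 0, and all are open in NINT against SAL.

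The members were then compared with each other by the ratio of their counts in each library, in which library size cancels. Ratios were compared across libraries only, since the read yield of each 3′ end is not known. The ratio of Col1a1 to Col1a2, the chains of type I collagen, was 0.709, 0.804, 0.779 and 0.762 in SAL replicates 1 to 4. It was 1.14, 1.09, 2.19 and 1.90 in BLM replicates 1 to 4 and 1.13, 1.03, 0.793 and 0.925 in NINT replicates 1 to 4. Every BLM animal was above every SAL animal, and 3 of 4 NINT animals were above the SAL range. The geometric mean ratio was 1.97 times as high in BLM as in SAL (difference of 0.98 on the log2 scale, exact permutation test, two-sided, p = 0.0286, adjusted p = 0.0643 over 9 ratio comparisons). That p is the smallest that 4 against 4 animals allow, and the difference did not pass after adjustment. Between NINT and BLM the log2 difference was -0.65, with NINT replicate 1 inside the BLM range (exact permutation p = 0.0571, adjusted p = 0.0735).

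The ratio of Col1a1 to Col3a1 was between 0.556 and 0.596 in SAL, between 0.680 and 1.37 in BLM and between 0.468 and 0.720 in NINT. BLM was above SAL without overlap, by 0.70 on the log2 scale (exact permutation p = 0.0286, adjusted p = 0.0643). NINT replicate 3 had the lowest ratio of all 12 libraries, and the NINT group overlapped both others. Its log2 difference from BLM was -0.61 (exact permutation p = 0.0571, adjusted p = 0.0735), and that from SAL was 0.09 (exact permutation p = 0.486, adjusted p = 0.546).

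The ratio of Col1a2 to Col3a1 was between 0.740 and 0.785 in SAL, where replicate 1 alone lay above 0.747, between 0.568 and 0.663 in BLM and between 0.590 and 0.698 in NINT. Every animal given bleomycin, with or without nintedanib, was below every SAL animal. The log2 difference from SAL was -0.28 in BLM and -0.24 in NINT (exact permutation p = 0.0286 and adjusted p = 0.0643 for each). Between NINT and BLM it was 0.04, with overlapping groups (exact permutation p = 0.629, adjusted p = 0.629). With BLM replicate 3 left out, the log2 difference between BLM and SAL was 0.80 for Col1a1 to Col1a2, 0.52 for Col1a1 to Col3a1 and -0.29 for Col1a2 to Col3a1, with the groups still apart. Between NINT and BLM the log2 differences without that animal were -0.47, -0.42 and 0.04 for the same ratios. Of the 9 comparisons of ratios, 4 reached the smallest possible p and 0 passed after adjustment. At that p a comparison can pass the adjustment only if most of the 9 reach it, so equal ratios were not shown. The 3 ratios are not independent, since any of them follows from the others.

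**Figure D4:**
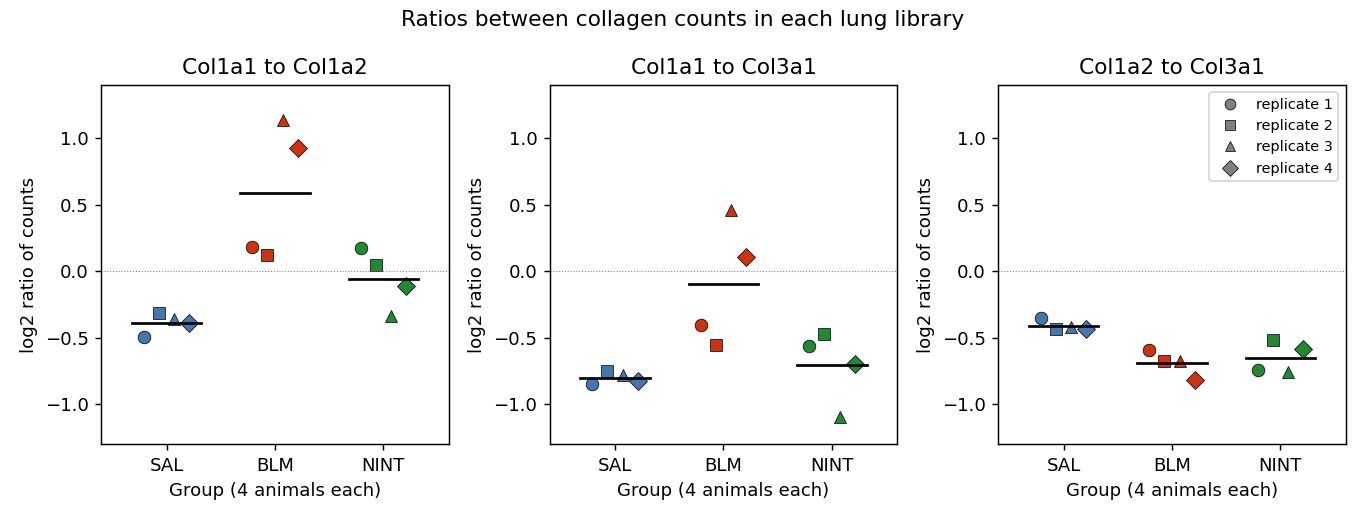
Log2 ratio of counts between each pair of collagen genes in each of the 12 lung libraries by group. Points are animals, symbols give the replicate number, and horizontal lines are group means. The ratio of Col1a1 to Col1a2 has group means of -0.39 in SAL, 0.59 in BLM and -0.06 in NINT, and that of Col1a2 to Col3a1 has group means of -0.41, -0.69 and -0.65.

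Profiles over the 12 libraries were compared by the root mean square difference in log2 CPM, each gene centred on its own SAL mean, among 10813 genes. This measure counts the size of the rise as well as the animals that show it. Col3a1 was the 16th nearest profile to Col1a2, at 0.23, and Col1a2 the 9th nearest to Col3a1. To Col1a1 the nearest profile was that of ENSRNOG00000018839, at 0.34, with Col3a1 16th at 0.49 and Col1a2 65th at 0.66. In the other direction, Col1a1 was only the 4225th nearest to Col1a2 and the 281st nearest to Col3a1. The median distance over all genes was 0.72 from Col1a2, 0.87 from Col3a1 and 1.34 from Col1a1. Col1a2 and Col3a1 were thus closer to each other than either was to Col1a1.

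The profile nearest to Col1a2 was a second row of the count table, ENSRNOG00000052925, at a distance of 0.0006. Its counts differed from those of Col1a2 by 1 to 20 reads per library. In BLM replicate 3, for example, Col1a2 had 34169 counts and the second row 34150. If reads had been divided at random between both rows, the SD of that difference would be 261 reads. The rows differed by far less than sampling noise in every library. Even so, the second row was kept as its own row in the fit of all genes, the profile ranking and the principal component. Of 10219 rows with a mean of at least 100 counts, 231 (2.26%) had another row within 2% in every library. Col1a1 and Col3a1 had none, the closest row to each differing by at least 43.2% in some library. Whether the authors' counting gave the same reads to both rows is not given in the sources used here, so the level of Col1a2 against other genes is uncertain. With both rows added, the log2 fold changes of Col1a2 in the 3 comparisons were 1.19, -1.09 and 0.10, as with 1 row.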

How the data were processed

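The authors deposited raw counts, whole numbers of reads per Ensembl gene, in 1 table with a column per animal, per the file header. FastQC, STAR, HTSeq and the genome build rn6 are named without versions per the submitters' processing notes, and the annotation and strand setting are not given in the sources used here. Each column was matched to 1 animal by its name; 7 empty unnamed columns were not used.

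The analysis used R 4.3.3. Low-count genes were removed with filterByExpr of edgeR 4.0.16 (minimum count 10, minimum total count 15), normalized with TMM factors and tested with edgeR's quasi-likelihood test over all 12 libraries, with a coefficient per group. P-values were adjusted by Benjamini-Hochberg over the 14956 genes kept, with 0.05 as the threshold for a call. Standard errors and 95% intervals came from that fit. CPM use TMM-normalized totals, and log2 CPM a prior count of 2. Ratios between members were compared with exact permutation tests over animals, two-sided, adjusted over 9 comparisons. The edgeR fit and the profile distance were also run on simulated data. The simulated counts had 1 spread per gene shared by all groups, so the wider spread among BLM animals was not covered. Alternatives were DESeq2 1.42.0, limma 3.58.1 (voom), other size factors and filters, fits of only the groups compared, a replicate block and leaving out each animal.

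Libraries of the same group differed by more than sampling noise (smallest chi-square divided by its degrees of freedom 9.72), and each animal was counted as 1 replicate. The members, the lists and the rule for named genes were chosen with earlier results of these data known. The rule named the 3 members, the 5 profiles nearest to each (among genes with a mean of at least 5 CPM in 1 group), and genes of pathway lists. The reference table of gene names held 0 Ensembl identifiers, so 18 lists of pathway and cell type genes were not run, and 2 other identifiers are named.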

Additional observations from a re-analysis of the deposited data

Results flagged for a closer look

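Levels of the 3 genes, ratios between them, their share of counts and library totals were searched within each group of 4 for 1 animal far from the others. Of 24 sets of values 1 had such an animal, where chance gives about 1.2. The count ratio of Col1a2 to Col3a1 was 0.785 in SAL replicate 1, against 0.740 to 0.747 in the other SAL animals. Without this animal the log2 difference in that ratio was -0.26 in BLM against SAL and -0.22 in NINT against SAL.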

How the results depend on the processing

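Of the 9 log2 fold changes of the members, none reversed under the 20 or 21 alternatives run for each. The 3 rises in BLM against SAL were called under all of them (1.80 to 2.73 for Col1a1, 0.84 to 1.41 for Col1a2, 1.16 to 1.71 for Col3a1). The number of all genes called in that comparison was 4717 to 7092 over 20 alternatives. Adding both near-identical rows for Col1a2 was chosen after seeing the data and changed no call.

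The calls in NINT against BLM were kept in 6 of 8 alternatives other than leaving out an animal (7 of 9 for Col1a2), with the lowest adjusted p in DESeq2, and were lost in the fit of those groups alone, with log2 fold changes of -1.97 (Col1a1), -1.08 (Col1a2) and -1.14 (Col3a1). With a replicate block they were -1.72, -1.004 and -1.05 (edgeR adjusted p = 0.0673, 0.0607 and 0.0530) and were not called. Whether replicate numbers pair the animals is not known. Deviations of same-numbered libraries from their group means correlated at -0.17 to 0.20, above 0.1 in 1 of 12 pairs. For 2 of 12 libraries (BLM replicate 2 and NINT replicate 2, with each other) the highest correlation was with the same number. With so few animals per group, weak correlations cannot exclude pairing, so they give no ground to set the replicate block aside. Leaving out 1 animal gave -2.24 to -1.31 for Col1a1, -1.26 to -0.70 for Col1a2 and -1.33 to -0.78 for Col3a1. In NINT against SAL, Col1a1 (0.49) and Col3a1 (0.38) were called only in the fit of those groups alone, which called 4248 of 14664 genes.

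The difference in the ratio of Col1a2 to Col3a1 between NINT and BLM was near 0 (0.04) and turned to -0.0028 without BLM replicate 4 and -0.0047 without NINT replicate 2 (range -0.0047 to 0.076); none passed the exact permutation test. Without 1 animal no ratio test of its own group can pass, since 3 against 4 cannot go below 0.0571.

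The number of genes called in NINT against BLM, 872, was 1960 with DESeq2, 28 in the fit of those groups alone, 370 with a replicate block and 17 (without NINT replicate 2) to 2857 (without BLM replicate 2) when 1 animal was left out. That in NINT against SAL, 1391, was 2295 with DESeq2, 4248 in the fit of those groups alone and 675 to 3344 when 1 animal was left out. The cause of these changes was not tested. Depth did not limit the members, whose lowest count was 4926 in any library.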
